A study of Schizosaccharomyces pombe with 6 samples.

Results

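The comparison described here set late against early depletion of Spt5 in the fission yeast Schizosaccharomyces pombe. The 2 libraries taken 4.5 h after depletion began were compared with the 2 libraries taken after 2.5 h, out of 6 libraries in the series. Every transcription unit of the deposited annotation was considered, 5484 in all, and 5178 had enough counts to be tested (4430 of the 4442 coding units and 729 of the 1022 noncoding units). Spt5 is the large subunit of DSIF, a factor that travels with RNA polymerase II from shortly after initiation and that is needed for efficient elongation and processing of the nascent RNA. In yeast it is encoded by an essential gene, so it was removed conditionally.

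All samples came from 1 strain, ASP167, of the h- mating type. Its spt5 gene was placed under the nmt81 promoter, which thiamine represses, and its Spt5 protein carried a V5 tag and the IAA17 auxin degron. The strain also expressed OsTIR1 and AtTIR1, plant auxin receptors fused to skp1 and driven by the adh15 promoter at ade6, and it carried ura4-D18. Depletion began at 0 h, when cultures in EMM, a minimal medium, received thiamine together with NAA, a synthetic auxin. At 0, 2.5 and 4.5 h the cells were labelled for 10 min with 5 mM 4-thiouracil, and the labelled RNA, which is mostly newly made, was sequenced (4tU-seq). The 2.5 h and 4.5 h groups therefore carried the same alleles and both agents and differed in time. No culture without thiamine and NAA was followed over the same hours, so effects of Spt5 loss, of either agent and of the passing hours cannot be told apart. In bulk RNA, fewer cells making a transcript and less of it per cell cannot be told apart either.

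The 2.5 h libraries held 17794017 and 11525663 counts and the 4.5 h libraries 13598877 and 14559076. Levels are given as CPM, counts scaled to a common library size, normalised over these 4 libraries, so every change is relative to the bulk of labelled RNA and says nothing of the total amount of RNA made. The 0 h libraries, put on the same scale, are given as a description only, because their replicates lay far apart (a difference of 2-fold or more was seen in 509 units at 0 h, 58 at 2.5 h and 35 at 4.5 h). Labelled spt5 RNA stood at 1024 and 769 CPM at 0 h, 118 and 108 CPM at 2.5 h, and 97.3 and 90.4 CPM at 4.5 h. It was thus low in all 4 depleted libraries, and its difference between 2.5 and 4.5 h did not pass the test (log2 change -0.27 ± 0.12 SE, adjusted p = 0.104, 2 libraries per time). Of the markers of mating type, mam1, the M-factor transporter of M cells, was measured at 67.4 to 218 CPM over the 6 libraries, mam2 and sxa2 at no more than 8.34 CPM, and map3, the M-factor receptor of P cells, at 6.65 to 20.7 CPM. The protease gene sxa1 of P cells was measured at 516 to 593 CPM, so these levels alone did not separate the labelled mating type from the other.

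Between 2.5 and 4.5 h, 950 units rose and 1059 fell at an adjusted p under 0.05 (edgeR quasi-likelihood test with Benjamini-Hochberg adjustment over all 5178 units). These are 18.3% and 20.5% of the tested units, 38.8% together, and they are the background for the counts below. The gene lists and the bins of unit structure hold coding units only, of which 20.5% rose and 18.8% fell. Of noncoding units 4.94% rose and 30.5% fell. The falls were the larger changes. Their median log2 change was -0.82 against 0.58 for the rises, and 367 units fell at least 2-fold against 66 that rose as much. The number of calls depended on which libraries set the spread. A fit without a 4.5 h library takes its spread from the 2.5 h pair alone. That pair lay further apart than the 4.5 h pair, with 58 units against 35 differing at least 2-fold. Without 4.5 h replicate 1 the same test called 29 higher and 142 lower, and without 4.5 h replicate 2 it called 13 higher and 76 lower, whereas it called 2424 without 2.5 h replicate 1 and 2067 without 2.5 h replicate 2. With the 0 h libraries added to the estimate of spread, 174 were higher and 360 lower. None of the 2009 calls changed direction in any of these fits. This was largely fixed in advance, because the fits share libraries and the 2.5 and 4.5 h levels of all 2009 units did not overlap. A core of 75 units, 8 higher and 67 lower, was called by edgeR, by DESeq2, with all 6 libraries and with each of the 4 libraries left out in turn.

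**Figure D1:**
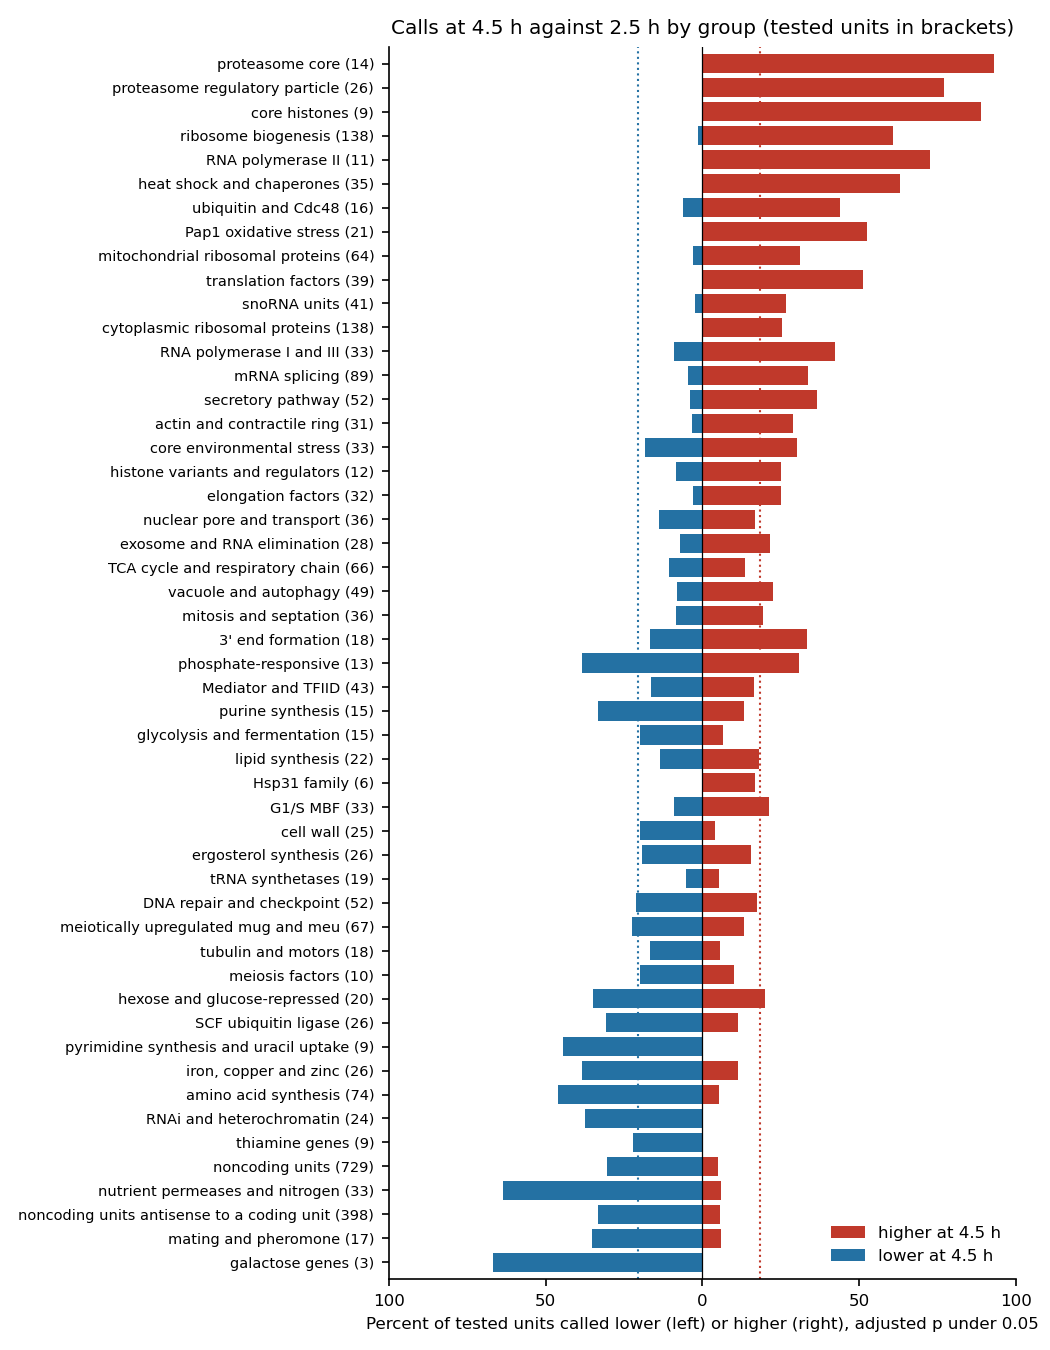
Percent of tested units in each gene list or unit class that were called lower (blue, left) or higher (red, right) at 4.5 h against 2.5 h, ordered by the median log2 change; dotted lines mark the 20.5% and 18.3% of all tested units. Proteasome, histone, ribosome biogenesis and chaperone lists lie far to the right of the red line, and permease, amino acid synthesis and antisense groups to the left of the blue line.

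The groups that came back were led by the proteasome, the protease complex that degrades ubiquitin-tagged proteins, formed of a core particle that cuts and a regulatory particle that recognises and unfolds substrates. Of 14 units for core subunits and the assembly factor ump1, 13 rose and none fell, with a median log2 change of 0.74. Of the 26 units of the regulatory particle and its chaperones 20 rose and none fell, with a median of 0.66. The median over all tested units was -0.01. At 2.5 h both lists lay below their 0 h level, by medians of -0.58 and -0.54 on the log2 scale, and at 4.5 h they lay at 0.07 and -0.13 from it; these differences share the 0 h libraries and are given side by side without a test. The core gene pre10, encoding subunit alpha 7, was measured at 82.3 and 80.3 CPM at 2.5 h and at 185 and 185 CPM at 4.5 h, after 196 and 206 CPM at 0 h. Both late libraries stood well above both early ones and just under the 0 h values (log2 change 1.19 ± 0.10, adjusted p = 0.000843). The regulatory subunit gene mts4 (Rpn1) was measured at 206 and 214 CPM at 2.5 h and 455 and 435 CPM at 4.5 h. It recovered part of the way to its 0 h levels of 704 and 722 CPM (1.09 ± 0.10, adjusted p = 0.000934). Both genes belong to the core of 75 units. The alpha subunit genes pre5, pup2 and pre6 rose by 0.95, 0.89 and 0.86 on the log2 scale, the beta subunit gene pre1 by 0.87, the ATPase gene rpt6 by 1.05 and rpn8 by 0.81. The beta subunit gene pre3 was the core gene that did not pass (0.15 ± 0.33). The 6 regulatory units that did not pass were nas6, uch2, rpn1302 and nas2 and the multigene units that hold rpn11 and rpn3; nas2 and uch2, like pre3, were named after their values were seen. When 4.5 h replicate 1 or replicate 2 was left out, 2 and 1 of the core genes were called, and the list's median was 0.72 and 0.80; of the regulatory list 1 was called in each of these fits, with medians of 0.67 and 0.69. With all 6 libraries 8 core and 6 regulatory units were called higher. The regulatory list had 1 unit called lower with 2.5 h replicate 1 left out, and 2 with 2.5 h replicate 2 left out or with library totals. The 2 early libraries differed from each other in the core list by a median of 0.23, and in the regulatory list by 0.27.

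Genes of the ubiquitin system were less uniform. Of 16 units for ubiquitin, conjugating enzymes and the Cdc48 unfoldase 7 rose and 1 fell. The ubiquitin fusion genes ubi3 and ubi5 rose by 0.59 and 0.60, ubx2, a Cdc48 cofactor, by 0.65, and rhp23, a shuttle for ubiquitinated proteins, by 0.54. The exception was ubc1, a conjugating enzyme, at 16.4 and 11.0 CPM at 2.5 h and 5.20 and 6.44 CPM at 4.5 h, a fall of 1.24 on the log2 scale (adjusted p = 0.00917). Of the 26 units for SCF ubiquitin ligases 3 rose (rbx1, pof12 and the unit holding cul1) and 8 fell, among them the F-box genes pof5 (-1.20), pof14 (-0.88) and pof10 (-0.62); the engineered strain carries added skp1 fusion genes, skp1 being a subunit of these ligases. No unit of the ubiquitin list was called without 4.5 h replicate 1 or 2 (medians 0.38 and 0.42), and of the SCF list 1 and 0 were called lower.

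Genes for making ribosomes formed the largest group to return. Of 138 ribosome biogenesis units 84 rose and 2 fell, the median log2 change was 0.52, and 126 of the 138 changes were positive. The list lay at a median of -0.30 from 0 h at 2.5 h and at 0.16 at 4.5 h. The largest changes were in short genes: cgr1 (1.33) and fyv7 (1.32), both for rRNA processing, and nop10 (1.30), a subunit of the particles that pseudouridylate rRNA. Labelled fyv7 RNA was measured at 26.4 and 31.8 CPM at 2.5 h and 63.4 and 81.1 CPM at 4.5 h, above its 0 h levels of 23.4 and 44.1 CPM. Also higher were utp24, the rRNA endonuclease (1.02), and rrp3, an RNA helicase (0.90), whose 4.5 h levels of 84.8 and 97.0 CPM stood above those of 77.7 and 82.5 CPM at 0 h. The 2 that fell were rrp45, an exosome subunit (-0.67), and las1 (-0.47), the latter named after its value was seen. Leaving out 4.5 h replicate 1 or 2 left 3 and 0 members called higher, with medians of 0.54 in both fits. With all 6 libraries 36 were called higher and 1 lower.

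The RNA polymerases followed the same direction. Of 11 units holding RNA polymerase II subunits 8 rose and none fell, with a median of 0.51. The dissociable subunit gene rpb4 was measured at 31.1 and 27.5 CPM at 2.5 h and at 73.8 and 57.5 CPM at 4.5 h, about 2 to 3 times the early levels and above the 0 h levels of 29.5 and 29.4 CPM (log2 change 1.16 ± 0.16, adjusted p = 0.00309). Of the 33 units for RNA polymerases I and III and their factors 14 rose and 3 fell. Here rpc11, encoding the subunit of RNA polymerase III needed for RNA cleavage and termination, showed the largest rise among called units with a symbol, a mean count of at least 50 and no overlap between the times. It was measured at 4.87 and 6.56 CPM at 2.5 h and at 20.7 and 18.1 CPM at 4.5 h, with 0 h levels of 6.38 and 8.98 CPM. The late libraries were above all 4 others (1.78 ± 0.21, adjusted p = 0.00179), and the call held in every fit of the core. The subunits rpc17 (1.05) and rpc19 (0.94) rose too. Those that fell were rrn7, an RNA polymerase I initiation factor, at 64.1 and 81.3 CPM against 32.6 and 36.2 CPM (-1.08), rrn11 (-0.75) and a unit that holds the TFIIIC gene sfc1 together with ade3 (-0.55). Among 32 elongation factor units, 8 rose and 1 fell. They include paf1 (0.64), cdc73 (0.58) and spt6 (0.44), partners of the elongating polymerase; the one that fell was csk1, a kinase that activates cyclin-dependent kinases (-0.85). Of the RNA polymerase II units, 0 and 1 were called without 4.5 h replicate 1 or 2, with medians of 0.51 and 0.55; of the list for RNA polymerases I and III 1 was called higher in each of these fits, and of the elongation factors 0.

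Translation genes divided. Of 39 units for translation factors 20 rose and none fell, with a median of 0.33; sui1, encoding eIF1, rose from 48.1 and 44.6 CPM to 121 and 89.2 CPM (1.18 ± 0.17, adjusted p = 0.00309). Of 138 units for cytoplasmic ribosomal proteins 35 rose and none fell, with a median of 0.31. The share that rose was 25.4%, against 18.3% of all units and 20.5% of coding units. The largest change was in rpl3002, at 61.8 and 43.4 CPM at 2.5 h and 161 and 102 CPM at 4.5 h (1.32 ± 0.26, adjusted p = 0.0095), followed by rps2501 (1.08) and rpl3801 (0.95). This group was the least secure, because its level differed between replicates: the early libraries differed by a median of 0.49 and the 0 h libraries by 2.3 on the log2 scale. Without 2.5h replicate 1, 89 were called higher (median 0.61), and without 2.5h replicate 2, 20 were called higher and 13 lower (median 0.10); without 4.5 h replicate 1 or 2, 0 and 1 were called. The part of the replicate difference in the result was not tested. Most ribosomal protein genes of this yeast have near-identical copies, and how shared reads were counted is not given in the sources used here. Of 64 mitochondrial ribosomal protein units 20 rose, led by mrpl38 (1.36), and 2 fell, mrp7 (-0.60) and the unit that joins mrp10 to shm1 (-0.77). Without 4.5 h replicate 1 or 2, 0 and 1 translation factor units and 0 mitochondrial units were called. Of 19 units for aminoacyl-tRNA synthetases 1 was called higher (the unit joining yrs1 to asp1, 0.40), 1 lower (trs1, -0.46) and 17 were not called; these were named after their values were seen.

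Promoters of ribosomal protein genes are known for HomolD, an 8-base element that stands where other genes have a TATA box. A search of the 250 bases before and 50 after each RefSeq gene start (assembly ASM294v3, both strands) found CAGTCACA in 88 of 138 promoters of ribosomal protein genes and in 2.7% of 5112 promoters of coding genes, and CCCTACCC, the core of the companion element HomolE, in 49 of 138 and in 1.6%. The stretches around HomolD in the promoters of 3 of the most raised ribosomal protein genes are shown on the gene's strand with the match in capitals; TGTGACTG is the same element on the other strand.
rpl3002: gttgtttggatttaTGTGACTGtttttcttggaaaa
rps2501: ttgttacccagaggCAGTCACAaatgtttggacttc
rpl3801: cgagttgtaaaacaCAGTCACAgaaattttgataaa
They lie at chrI:5095913-5095948 (- strand), chrII:1274171-1274206 (+ strand) and chrII:754574-754609 (+ strand), and the match begins 55, 65 and 49 bases before the gene start.

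Chaperone genes rose and reached levels above 0 h. Of 35 units for heat shock proteins and chaperones 22 rose and none fell, with a median of 0.45; the list lay at -0.26 from 0 h at 2.5 h and at 0.16 at 4.5 h. The Hsp70 gene ssa1 was measured at 1965 and 2347 CPM at 2.5 h and at 4968 and 4945 CPM at 4.5 h, against 1787 and 2565 CPM at 0 h. The late libraries were above all others (1.20 ± 0.14, adjusted p = 0.00189). The unit that joins ssa2, another Hsp70 gene, to ppe1 rose by 1.18 and hsp90 by 1.06. The small heat shock protein gene hsp16 was measured at 346 and 653 CPM at 0 h, 707 and 868 CPM at 2.5 h, and 2010 and 2204 CPM at 4.5 h. Its rise (1.42 ± 0.14, adjusted p = 0.00108) was called in every fit of the core. Similarly hsp9, of the Hsp12 type, stood at 275 and 328, 747 and 1068, and 2354 and 2194 CPM at the 3 times (1.33 ± 0.18, adjusted p = 0.00271). These small heat shock genes did not come back to a starting level but moved further from it. Of the list, 3 and 1 were called higher without 4.5 h replicate 1 or 2, with medians of 0.47 and 0.44.

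Genes of the oxidative stress response also rose in the later interval. Pap1 is the transcription factor that switches on antioxidant genes in fission yeast. Of 21 units on the Pap1 list 11 rose and none fell, with a median of 0.36. The list lay above 0 h by medians of 0.25 at 2.5 h and 0.61 at 4.5 h. Its 0 h replicates differed by a median of -0.29, so the step from 0 h to 2.5 h was no larger than their spread. The thioredoxin gene trx1 was measured at 422 and 363 CPM at 0 h, 729 and 684 CPM at 2.5 h, and 1408 and 1445 CPM at 4.5 h, higher at each later time with no overlap (4.5 h against 2.5 h, 1.01 ± 0.11, adjusted p = 0.00147). The quinone reductase gene obr1 (1.00), the peroxiredoxin gene tpx1 (0.97, in a unit shared with a noncoding RNA), the sulfiredoxin gene srx1 (0.81) and the thioredoxin reductase gene trr1 (0.79) rose as well. Without 4.5 h replicate 1 or 2, 2 and 0 were called, with medians of 0.39 in both. The broader core environmental stress list was mixed, with 10 higher and 6 lower of 33. It shares hsp16 and hsp9 with the chaperone list and srx1 and trr1 with the Pap1 list, so these rises are counted again here. On it tms1, a hexitol dehydrogenase gene, fell from 17.9 and 18.8 CPM to 8.52 and 4.62 CPM (-1.49). This stress list had 1 higher and 1 lower without 4.5 h replicate 1, and 1 higher without replicate 2.

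Core histone genes, like the small heat shock genes, moved on from an already raised level. Of 9 genes 8 rose and none fell, with a median of 0.58; the list lay above 0 h by medians of 0.78 at 2.5 h and 1.35 at 4.5 h. The H2B gene htb1 was measured at 895 and 1132 CPM at 0 h, 1442 and 2057 CPM at 2.5 h, and 3297 and 3755 CPM at 4.5 h. The 3 times did not overlap (4.5 h against 2.5 h, 1.01 ± 0.19, adjusted p = 0.00663). The H2A gene hta1 and the H4 gene hhf3 both rose by 0.80, hhf1 by 0.77 and the H3 gene hht3 by 0.58, while hhf2 was the one not called (0.16 ± 0.17). The variants pht1, encoding H2A.Z, and cnp1, encoding the centromeric H3, rose by 0.90 and 0.63. Their list of 12 histone variants and regulators had 3 rises and 1 fall (hip3, -0.72), with a median of 0.17. Histone genes come in near-identical copies, which the counts may split unevenly. The markers of G1/S transcription moved less. Of 33 units listed for the G1/S factor MBF, 7 rose, among them cdt2 (1.08), and the median was -0.03. The 3 that fell include the MBF subunit gene res1 (-0.99) and the cyclin gene cig2 (-0.70). Without 4.5 h replicate 1 or 2 this list's median was 0.10 and -0.12. Without 4.5 h replicate 1 or 2, 1 and 0 histone genes were called, with medians of 0.75 and 0.44.

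The histone promoters share a sequence that is shown here because all of them hold it. The histone element AACCCTAA, searched on both strands, was found in 9 of 9 core histone promoters and in 1.1% of 5112 promoters. Since 4 pairs of histone genes are read away from each other from a shared stretch, the 9 promoters reduce to 5 stretches. Of these, 4 are printed on the strand of the first gene named, with the match in capitals (TTAGGGTT is the same element on the other strand).
hht1 and hhf1: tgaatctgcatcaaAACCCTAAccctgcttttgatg
hht2 and hhf2: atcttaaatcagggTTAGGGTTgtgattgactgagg
hhf3 and hht3: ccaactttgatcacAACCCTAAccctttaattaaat
hta2: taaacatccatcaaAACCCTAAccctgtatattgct
In ASM294v3 they lie at chrI:4699638-4699673 (+), chrII:1365050-1365085 (+), chrII:3529613-3529648 (+) and chrI:4053361-4053396 (-). In all 9 promoters the element is followed directly by its own bases CCCT again. A match describes the letters only.

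**Figure D2:**
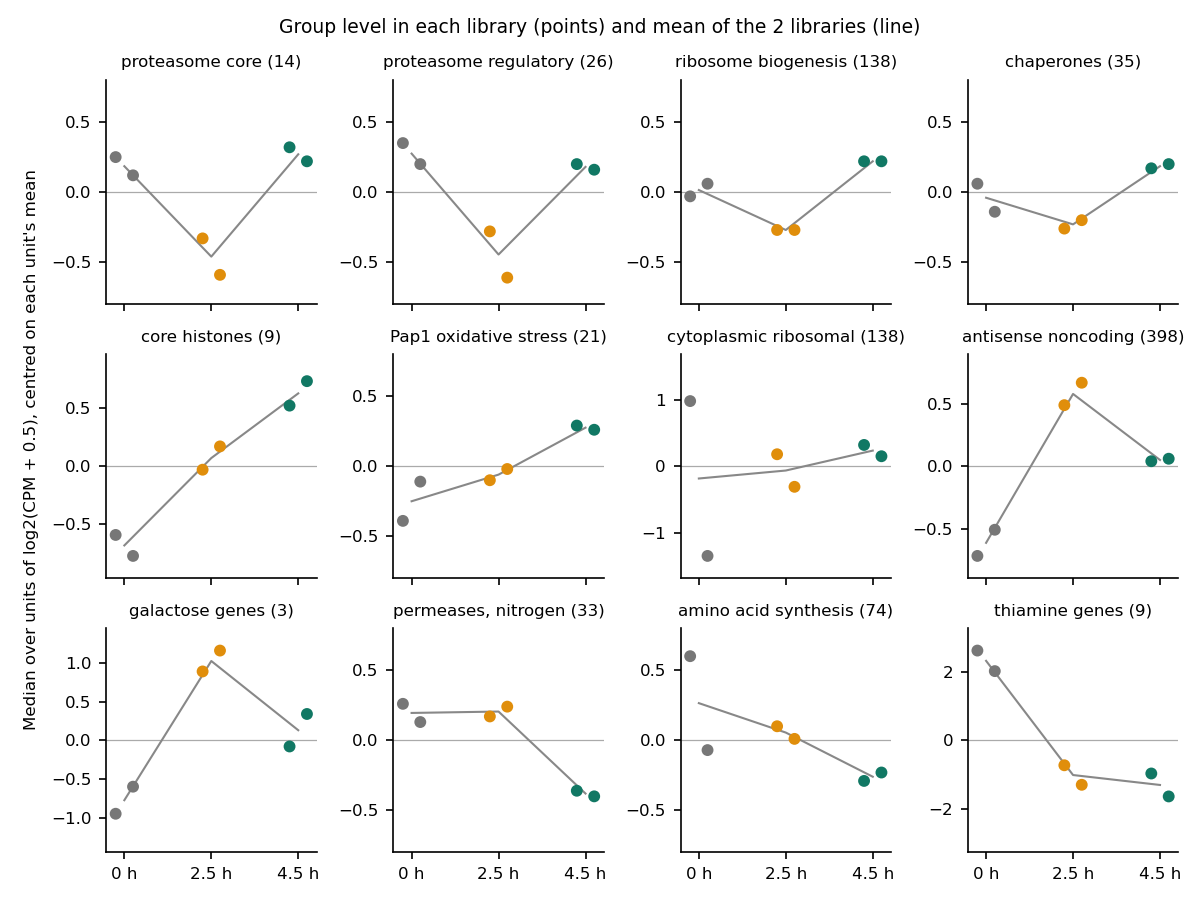
Median over the units of each group of log2(CPM + 0.5), centred on each unit's mean over the 6 libraries, for the 2 libraries at 0 h (grey), 2.5 h (orange) and 4.5 h (green); lines join the means of the 2 libraries and brackets give the number of units. The proteasome lists dip at 2.5 h and return, histones climb at each time, antisense units peak at 2.5 h, and permeases drop after 2.5 h.

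Splicing and membrane traffic lists held more rises than falls, with smaller medians. Of 89 splicing units 30 rose and 4 fell (prp3, spf38, saf1 and the unit joining cwf29 to snx3), with a median of 0.26. Among them were lsm6 of the U6 particle (1.19), cwf2 (0.93), the U2-associated gene sap49 (0.88) and the helicase gene prp43 (0.83). Of 41 tested snoRNA units 11 rose and 1 fell, although 25 of these share a multigene unit with another gene. Other RNA processing lists lay closer to the background: of 28 exosome and RNA elimination units 6 rose and 2 fell (median 0.12), and of 18 units for 3′ end formation 6 rose and 3 fell (median 0.05). Of 52 units of the secretory pathway 19 rose, including the SNARE gene sec22 (0.96) and the translocon gene sec63 (0.90), and 2 fell: ire1, the sensor of unfolded proteins in the endoplasmic reticulum (-0.65), and sec71 (-0.38). Leaving out 4.5 h replicate 1 or 2 left 1 and 0 splicing units, 1 and 0 snoRNA units and 0 secretory units called, and 0 of the exosome and 3′ end lists. The membrane insertion factor gene emc5, outside these lists, came next after rpc11 by size of rise under the same conditions, from 13.5 and 11.6 CPM to 32.4 and 35.4 CPM (1.43 ± 0.16, adjusted p = 0.00152); its late levels were also above those of 15.2 and 18.5 CPM at 0 h. Short units led the rises: 13 of the 15 largest were in units under 1000 bases, against 2 of the 15 largest falls, and the median tested coding unit was 1846 bases long. That the early replicates also differed with length is taken up beside the counts by length.

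Nutrient uptake genes declined. Of 33 units for nutrient permeases and nitrogen use 21 fell and 2 rose (the units holding fhn1 and gaf1), with a median log2 change of -0.59. The share that fell was 63.6%, against 20.5% of all units and 18.8% of coding units. At 2.5 h this list lay at 0.02 from its 0 h level and at 4.5 h at -0.58. The amino acid transporter gene agp3 showed the largest fall among called units with a symbol, a mean count of at least 50 and no overlap between the times: it was measured at 22.4 and 32.3 CPM at 2.5 h and at 2.56 and 2.87 CPM at 4.5 h, after 12.2 and 13.9 CPM at 0 h. All 4 other libraries were several times higher than both late ones (-3.32 ± 0.25, adjusted p = 0.000531). The oligopeptide transporter gene opt3, outside this list but among the 15 largest falls, was measured at 70.3 and 123 CPM at 2.5 h and 11.4 and 10.1 CPM at 4.5 h (-3.17 ± 0.28, adjusted p = 0.000934). Arginase, encoded by car1, which opens the breakdown of arginine, was measured at 75.1 and 66.7 CPM and then 21.3 and 24.3 CPM (-1.64 ± 0.14, adjusted p = 0.000843), below 0 h levels of 76.6 and 90.2 CPM. The permease gene per1 (-1.51), the oxygenase gene isp7 (-1.20) and the ammonium transporter gene amt1 (-1.12) fell too. Called lower without 4.5 h replicate 1 or 2 were 5 and 2 of the list, with medians of -0.57 and -0.46.

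The dipeptidyl peptidase gene dpe2 stands beside agp3 and is read away from it. It was measured at 19.5 and 24.2 CPM at 2.5 h and 4.37 and 5.18 CPM at 4.5 h (-2.18 ± 0.20, adjusted p = 0.000934), with 13.2 and 11.6 CPM at 0 h. In the deposited coordinates (ASM294v2) the stretch of chromosome III from the start of opt3 at 2281083 to the end of the taf13 unit at 2319871 holds 22 tested units, of which 8 fell and 1 rose; opt3, dpe2, agp3 and the unit joining taf13, a TFIID subunit gene, to SPNCRNA.1287 (-1.96) are all among the 15 largest falls, and the stretch was picked after their values were seen. Another neighbouring pair on chromosome III, dao1 and plb5, fell together: dao1, encoding D-amino acid oxidase, went from 73.2 and 115 CPM to 15.5 and 15.9 CPM (-2.58 ± 0.23, adjusted p = 0.000843) and plb5, a phospholipase gene, from 41.4 and 60.2 CPM to 13.3 and 14.5 CPM (-1.86 ± 0.20, adjusted p = 0.00152). Both late values lay under all 4 earlier ones in each gene.

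GATA factors, which bind GATAAG, control nitrogen and iron genes in fungi. The windows were set by RefSeq gene starts, so those called promoters here can hold transcribed leader. Coding units with longer leaders fell more often, and the part of this in the shares below was not tested. GATAAG on either strand was found in 17.5% of the promoters of single-gene coding units that fell, in 9.1% of those that rose and in 11.6% of all 5112; in 8 of 33 genes of the permease list; and in 5 of the 14 single-gene units among the 15 largest falls. It was not particular to lists that fell: it was found in 8 of 19 genes for tRNA synthetases, 6 of 22 for lipid synthesis, 7 of 31 for actin and 3 of 14 for the proteasome core. The stretches are printed on the gene's strand with the match in capitals (CTTATC is the same element on the other strand). That of agp3 is also the one in the dpe2 promoter. The matches of per1 and urh1 lie inside their deposited units.
agp3: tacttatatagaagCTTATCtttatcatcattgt
dao1: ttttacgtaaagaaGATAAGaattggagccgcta
vht1: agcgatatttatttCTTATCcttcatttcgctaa
urh1: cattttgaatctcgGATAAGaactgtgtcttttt
per1: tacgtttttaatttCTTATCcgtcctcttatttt
amt1: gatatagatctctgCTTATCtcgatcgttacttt
They lie in ASM294v3 at chrIII:2306052-2306085 (-), chrIII:1738321-1738354 (-), chrI:4961104-4961137 (-), chrII:152947-152980 (-), chrI:3749325-3749358 (+) and chrIII:2068805-2068838 (+). No GATAAG was found in the windows of opt3, fau1 or car1. The opt3 window began at 2281362, past the start of its deposited unit at 2281083, so sequence ahead of that unit was not searched. The same held for mug115, another of the 15 largest falls.

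Of 74 units for amino acid synthesis 34 fell and 4 rose, 45.9% lower, with a median of -0.36. The serine pathway gene ser3 was measured at 2073 and 1905 CPM at 2.5 h and 896 and 829 CPM at 4.5 h (-1.21 ± 0.12, adjusted p = 0.00108). Its 0 h values of 2367 and 1032 CPM lay far apart, both above the late values. The glutamate dehydrogenase gene gdh2 fell by 1.18 and lys1, of the lysine pathway, by 1.02. The 4 that rose were met1, for the sirohaem cofactor of sulfite reductase (1.04), met16, phosphoadenylyl sulfate reductase (0.83), cys11, cysteine synthase (0.58), and the unit joining lys7 to nuc2 (0.38); met16, cys11 and lys7 were named after their values were seen. Labelled met1 RNA was measured at 347 and 351 CPM at 2.5 h and at 801 and 638 CPM at 4.5 h, with 528 and 692 CPM at 0 h. The late values were above both early ones and overlapped those of 0 h. The sirohaem synthase gene met8, by contrast, fell by 0.97. Without 4.5 h replicate 1 or 2, 3 and 0 of the list were called lower, with medians of -0.30 and -0.35, and with all 6 libraries 3 were called higher and 1 lower.

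Several vitamin, metal and nucleobase genes fell. The biotin transporter gene vht1 was measured at 874 and 910 CPM at 2.5 h and 141 and 161 CPM at 4.5 h, below both 0 h values of 1246 and 471 CPM (-2.56 ± 0.12, adjusted p = 0.000262). Of 26 units for iron, copper and zinc 10 fell and 3 rose. The ferrichrome synthetase gene sib1 fell from 2032 and 2883 CPM to 1051 and 843 CPM (-1.38 ± 0.19, adjusted p = 0.00308), the iron permease gene fip1 by 1.28, the ferric reductase gene frp2 by 1.94 and the mitochondrial iron transporter gene mmt1 by 1.36. The 3 that rose were pcl1 (0.63), isa1 (0.54) and grx4 (0.38), of which pcl1 stores iron in the vacuole and isa1 assembles iron-sulfur clusters. Of 9 pyrimidine units 4 fell and none rose: urg2, a putative uracil phosphoribosyltransferase gene (-2.25), urg1 (-1.56), the uracil transporter gene fur4 (-0.74) and urg3 (-0.67). The uridine hydrolase gene urh1, outside this list but among the 15 largest falls, was measured at 14.3 and 21.0 CPM and then 3.39 and 3.36 CPM (-2.37 ± 0.25, adjusted p = 0.00144). Since 4-thiouracil is a uracil analogue and the strain carries ura4-D18, uracil genes and the label share a pathway; the part of this in the result was not tested. Thiamine genes, repressed by the thiamine that was added, lay at medians of -3.77 and -3.82 from 0 h at the 2 times, and 2 of 9 fell further, tnr3 (-1.20) and thi4 (-0.80); the list's median of -0.40 became -0.90 and -0.20 without 4.5 h replicate 1 or 2. In those fits 2 and 0 of the iron list, 1 and 0 of the pyrimidine list and 1 and 0 of the thiamine list were called lower.

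A distinct set of coding genes was high at 2.5 h alone. The folate gene fau1, encoding 5-formyltetrahydrofolate cyclo-ligase, was measured at 8.86 and 6.92 CPM at 0 h, 47.3 and 57.6 CPM at 2.5 h, and 6.18 and 6.23 CPM at 4.5 h, so that both early libraries stood apart from the other 4 (-3.08 ± 0.17, adjusted p = 0.000384). The centromere gene mis20 showed the same shape, with 5.35 and 5.44, 22.2 and 27.9, and 6.26 and 3.99 CPM (-2.29 ± 0.25, adjusted p = 0.00144). So did aca1, which acetylates the proline analogue azetidine-2-carboxylate, with 35.4 and 19.0, 83.0 and 95.3, and 24.8 and 23.4 CPM (-1.89 ± 0.14, adjusted p = 0.00048). The autophagy gene atg5 stood at 31.0 and 37.9, 74.0 and 87.9, and 28.3 and 27.9 CPM (-1.52 ± 0.14, adjusted p = 0.000934), although of 49 vacuole and autophagy units 11 rose and 4 fell (0 and 1 without either 4.5 h library). Among the galactose genes, which are silent in most wild-type fission yeast, gal7 stood at 18.6 and 26.4, 68.0 and 82.0, and 26.4 and 32.0 CPM (-1.36 ± 0.16, adjusted p = 0.00189). Its neighbour gal10 fell by 1.02 and stood at 11.6 and 21.4, 85.2 and 111, and 39.5 and 57 CPM. The neighbour gal1 did not pass (-0.27 ± 0.16), with 31.7 and 32.3, 63.3 and 71.8, and 49.4 and 62.5 CPM. Both gal10 and gal1 thus stayed above their 0 h levels at 4.5 h and were not high at 2.5 h alone. The median of the galactose genes, -1.02, became -0.76 and -1.29 without 4.5 h replicate 1 or 2. The calls of fau1, mis20, aca1 and atg5 held in every fit of the core.

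**Figure D3:**
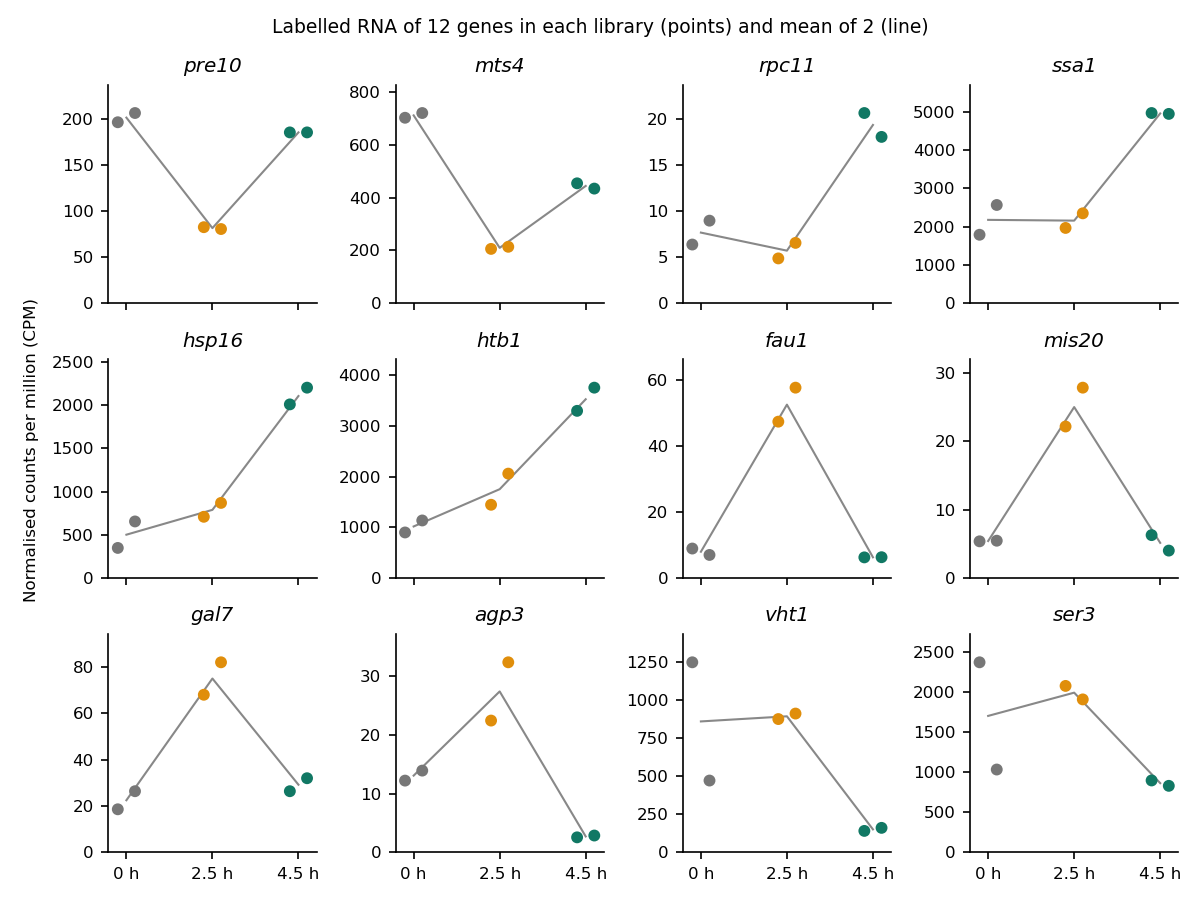
Normalised CPM of 12 genes in each library at 0 h (grey), 2.5 h (orange) and 4.5 h (green), each axis starting at 0, with lines joining the means of 2 libraries. The genes pre10 and mts4 dip and return, hsp16 and htb1 climb, fau1, mis20 and gal7 peak at 2.5 h, and agp3, vht1 and ser3 are lowest at 4.5 h.

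The lists of mating and of heterochromatin genes held more falls than rises. Of 17 mating and pheromone units 6 fell and 1 rose (ste20, 0.44), with a median of -0.61; the M-factor receptor gene map3 fell by 1.43, the MAP kinase gene spk1 by 1.36 and the G-protein gene gpa1 by 0.61. Of 24 RNAi and heterochromatin units 9 fell and none rose, with a median of -0.40. The argonaute-binding gene arb1 was measured at 18.0 and 13.5 CPM at 2.5 h and 4.60 and 5.25 CPM at 4.5 h, well under its 0 h levels of 19.6 and 19.4 CPM (-1.68 ± 0.22, adjusted p = 0.00261). The histone acetyltransferase gene mst2 (-1.0), the deacetylase gene sir2 (-0.87) and rik1 of the H3K9 methyltransferase complex (-0.74) fell too. None of the heterochromatin list was called without 4.5 h replicate 1 or 2, with medians of -0.37 and -0.40, and of the mating list 2 and 0 were called, with medians of -0.73 and -0.33. The DNA repair list lay near the background, with 9 higher and 11 lower of 52 and a median of -0.07 (1 higher and 1 lower without 4.5 h replicate 1, and 0 and 1 without replicate 2); in it rad50, encoding a subunit of the double-strand break sensor, fell from 211 and 296 CPM to 78.2 and 90.1 CPM (-1.59 ± 0.17, adjusted p = 0.00144).

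Noncoding RNA declined as a class. Of 729 tested noncoding units 222 fell and 36 rose, 30.5% and 4.94%, with a median of -0.46 against 0.03 for coding units. The class lay above 0 h by medians of 0.85 at 2.5 h and 0.52 at 4.5 h. Of the 398 units that overlap a coding unit on the opposite strand 133 fell and 22 rose, with a median of -0.60; the 331 without such overlap had 89 falls, 14 rises and a median of -0.30. Split another way, the 284 noncoding units with no annotated gene had 94 falls, 14 rises and a median of -0.62, and the 437 annotated ones had 125 falls, 22 rises and a median of -0.38. The antisense units lay at 1.18 above 0 h at 2.5 h and 0.64 at 4.5 h. The 131 coding units opposite the falling antisense units did not move one way: 20 rose, 37 fell and 74 were not called, with a median of -0.07, against 33 higher, 62 lower and a median of -0.12 among the 228 opposite uncalled antisense units. Whether the counting used strand is not given in the sources used here, so a unit and its antisense partner may share reads. Of the noncoding units 34 and 21, and of the antisense ones 19 and 12, were called lower without 4.5 h replicate 1 or 2, with medians of -0.43 and -0.48 for all noncoding units and -0.55 and -0.62 for antisense ones.

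Single noncoding units showed the same peak at 2.5 h. TU.6341, which the annotation does not pair with a gene, stood at 4.68 and 4.45 CPM at 0 h, 28.8 and 31.8 CPM at 2.5 h, and 3.69 and 5.18 CPM at 4.5 h (-2.76 ± 0.21, adjusted p = 0.00048). TU.6473 stood at 27.4 and 50.7, 132 and 283, and 21.7 and 28.5 CPM, with the early replicates apart by more than the late ones (-3.04 ± 0.39, adjusted p = 0.00401). The largest rises were smaller: TU.6939 went from 3.25 and 4.74 CPM to 13.1 and 11.8 CPM (1.66 ± 0.24), but it lies opposite the unit that joins ssa2 to ppe1, which rose as well, and SPNCRNA.20 from 1.90 and 1.73 CPM to 6.63 and 4.62 CPM (1.62 ± 0.31).

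One stretch of chromosome I gathered several of these falls. TU.1070, the noncoding unit with the largest fall by the rule used for naming, stood at 6.17 and 6.86 CPM at 0 h, 20.0 and 29.6 CPM at 2.5 h, and 2.56 and 2.87 CPM at 4.5 h (-3.18 ± 0.26, adjusted p = 0.000804). It lies at 3745812 to 3746674 on the + strand (ASM294v2), ahead of TU.1071 (-2.09) and the permease gene per1, which stood at 104 and 146 CPM at 2.5 h and 47.3 and 40.4 CPM at 4.5 h. Its other neighbours were looked at after its value was seen. Upstream on the same strand prm1, a gene for membrane fusion in mating, fell by 1.60. TU.1065 (-2.06), TU.1066 (-2.61) and TU.1068 (-1.87), which lie opposite lys1, fell too. TU.1066 and TU.1068 were never above 3.97 CPM. Between TU.1068 and TU.1070 the ribosomal protein gene rpl1002 did not pass (0.29 ± 0.14). So of the 10 units from prm1 to per1 on both strands 9 fell. These are not 9 separate falls if opposite units share reads, since whether the counting used strand is not given. On the other strand lys1 overlaps prm1, TU.1065, TU.1066 and TU.1068, and SPNCRNA.934 overlaps TU.1070 and TU.1071.

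**Figure D4:**
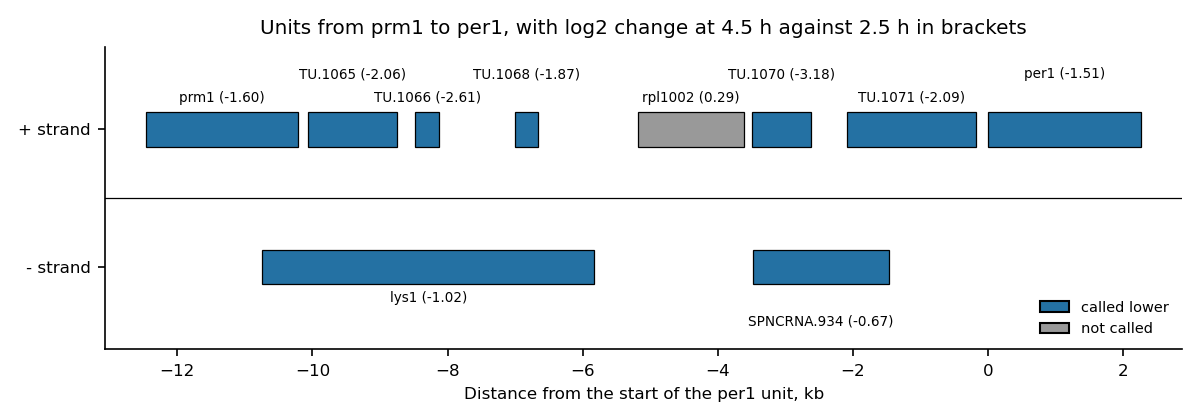
Units from prm1 to per1 drawn to scale on each strand by distance from the start of the per1 unit in kb; blue units were called lower at 4.5 h, the grey unit was not called, and brackets give the log2 change. All units except rpl1002 are blue, on both strands, though units that overlap on opposite strands may share reads.

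The calls varied with the structure of the coding units. Units were split into 5 equal bins by the length of the 5′ leader, the transcribed stretch before the start codon. In the bin with the shortest leaders, 0 to 39 bases, 261 of 769 rose and 78 fell; in the bin with the longest, 286 bases and over, 90 of 762 rose and 227 fell. The medians went from 0.25 through 0.14, 0.03 and -0.02 to -0.13. Among coding units in none of the gene lists the same split gave 127 higher and 75 lower of 505 for the shortest leaders and 52 higher and 149 lower of 503 for the longest. With coding units also split into 3 classes of length, the medians of the shortest and longest leaders were 0.37 and -0.13 in short units, 0.17 and -0.12 in middle ones and 0.10 and -0.13 in long ones. Between the replicates the bins of shortest and longest leaders differed little at 2.5 h (medians of 0.05 and -0.05) and at 4.5 h (0.00 and 0.02).

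Length itself gave a weaker and less secure trend. The shortest bin, 281 to 1182 bases, had 230 rises and 79 falls of 886, with a median of 0.24, and the longest, 2931 bases and over, had 101 rises and 213 falls, with a median of -0.07. The early replicates differed along the same axis, by a median of 0.19 in the shortest and -0.14 in the longest bin, and the late ones by 0.05 and 0.01. Without 2.5h replicate 1 the medians of these bins were 0.38 and -0.13, and without 2.5h replicate 2 they were 0.13 and -0.02. Units with 1 to 3 introns had more rises than falls (220 and 154, 146 and 86, and 84 and 53), those with 4 or more had 44 rises and 81 falls, and those with none had 415 and 461. The length of the 3′ untranslated region made little difference, with medians from -0.02 to 0.07.

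The deposited unit table also holds the authors' estimates of synthesis time and half-life, whose time unit is not given there and which were used only to rank units. In the bin of coding units with the shortest synthesis time 356 of 887 rose and 67 fell, with a median of 0.30; in the bin with the longest, 61 of 881 rose and 320 fell, with a median of -0.31. The 3 bins between had medians of 0.14, 0.04 and -0.12. The replicates of 2.5 h differed by no more than 0.04 in any of these bins, in the median. Within the class of shortest synthesis times, of 3, the shortest and longest leaders still had medians of 0.38 and 0.09, and within the class of longest times -0.06 and -0.39. For half-life, the bin with the shortest had 124 rises and 217 falls and the bin with the longest 214 and 106, but here the early replicates differed by -0.11 and 0.18.

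**Figure D5:**
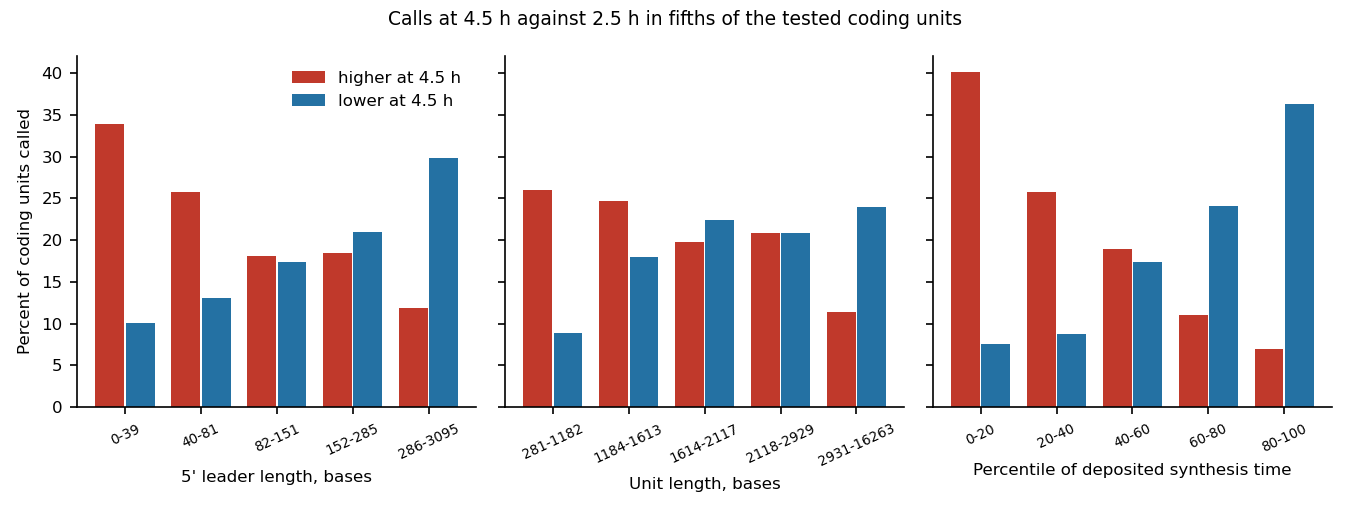
Percent of coding units called higher (red) or lower (blue) at 4.5 h against 2.5 h in 5 bins of the units by 5′ leader length in bases, unit length in bases and percentile of the deposited synthesis time. The share of rises goes from 33.9% to 11.8% with leader length and from 40.1% to 6.92% with synthesis time, and the share of falls moves the opposite way.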

How the data were processed

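Labelled RNA of 2 libraries at each of 0, 2.5 and 4.5 h was sequenced; the labels call them replicates, and p-values measure the spread between these libraries. The submitters' processing notes name STAR 2.3.0, SAMtools and the build ASM294v2. The authors deposited raw counts per transcription unit and a table of units whose synthesis time and half-life scores were used for ranks only. How the counting treated strand and shared reads is not given in the sources used here.

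From the deposited counts, edgeR 4.0.16 (robust quasi-likelihood test, TMM, filterByExpr, Benjamini-Hochberg adjustment over 5178 units) compared the 2.5 and 4.5 h libraries, with 2 residual degrees of freedom. Errors are SE. The script was tested on simulated data made from these libraries. Alternatives were DESeq2 1.42.0, its size factors, library totals, no filter, a mean count of at least 50, all 6 libraries, the replicate block and each library left out.

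Identifiers were matched to RefSeq symbols (5028 of 5062). The comparison and the 48 gene lists were chosen with earlier results of these data known, and list errors were corrected after the values were seen. The naming rule took spt5, 3 noncoding units each way and up to 5 called members of each list. The 15 largest rises and 15 largest falls came from called units with a symbol, a mean count of at least 50 and no overlap. Other genes were named after their values were seen, and the text says so for only some of them. Group levels are medians of log2(CPM + 0.5). A unit of several genes has 1 count. One promoter stretch and 1 gene are not reported here.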

Additional observations from a re-analysis of the deposited data

How the results depend on the processing

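The counts of 950 higher and 1059 lower units moved by less than 1.5 times with DESeq2 (940 and 969), DESeq2's size factors, library totals (772 and 1219), no filter and a mean count of at least 50. With all 6 libraries in the fit 534 units were called, 174 higher and 360 lower. Leaving out 1 library gave between 89 and 2424 calls in all, 13 to 1184 higher and 76 to 1240 lower; all 3 low ends came without 4.5 h replicate 2, and the fits without a 4.5 h library take their spread from the 2.5 h pair alone. In such fits the lone library is assumed to vary like the others. With the replicate number as a block 1051 were higher and 1145 lower, a count of 2196; the numbers were not shown to pair the libraries (the replicate differences at 2.5 h and 4.5 h had a correlation of 0.101 across units), so this is given only here. Library totals moved the median of all units to -0.07. No result changed direction past the threshold in any of these fits, which the lack of overlap between the times in all called units largely fixed in advance. The calls cover only changes relative to all labelled RNA.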

Other observations

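The list of phosphate-responsive genes split in the later interval: of 13 units 4 rose and 5 fell, and none was called with all 6 libraries. The list's median of 0.04 became 0.05 and -0.01 without 4.5 h replicate 1 or 2. Noncoding transcription upstream is known to repress some of these genes in fission yeast, among them pho1, pho84 and tgp1, and these fell. The acid phosphatase gene pho1 was measured at 1452 and 411 CPM at 0 h, 2150 and 1711 CPM at 2.5 h, and 1000 and 1099 CPM at 4.5 h (log2 change -0.88 ± 0.15 SE, adjusted p = 0.00483). The transporter genes pho842, tgp1 and pho84 fell by 0.81, 0.77 and 0.43, while aps1 rose by 0.56 (adjusted p = 0.00741).

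Carbon metabolism lists had no common direction. Of 15 units for glycolysis and fermentation 1 rose and 3 fell, with a median of 0.02; without either 4.5 h library 1 was called, lower. The phosphoglycerate kinase gene pgk1 rose from 1863 and 2436 CPM to 3450 and 3693 CPM (0.73 ± 0.16, adjusted p = 0.0113), whereas the alcohol dehydrogenase gene adh4 fell from 202 and 230 CPM to 87.8 and 87.2 CPM (-1.30 ± 0.11, adjusted p = 0.000843). Units for the TCA cycle and the respiratory chain, taken as 1 list, gave 9 rises and 7 falls of 66, with a median of 0.11. That median became 0.08 and 0.16 without 4.5 h replicate 1 or 2. Leaving out 2.5 h replicate 1 gave 24 rises and 6 falls and leaving out replicate 2 gave 6 and 15. Among them the assembly factor genes atp10 and cox18 fell by 1.41 and 1.12, and the small ATP synthase subunit gene atp19 rose by 1.09.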
